A study of Mus musculus with 4 samples.

Results

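The genes described here encode a chosen set of Polycomb subunits and histone lysine demethylases, not all of them. They are 47 of the 21887 protein-coding genes of the nuclear genome. They were taken by name, with earlier results of these data known, so their shares are descriptions only. They comprise 21 subunits of Polycomb repressive complex 1 (PRC1), 10 of PRC2 and 16 demethylases, Kdm2b (Fbxl10) among the last. The study asked where Fbxl10 binds when it is overproduced. All its samples were mouse embryonic fibroblasts (MEFs) from a gain-of-function model with HA-tagged Fbxl10, the controls included, and the groups compared were cells given doxycycline at 1 µg/ml for 48 hours to switch the protein on (induced) and cells without it (non-induced). Chromatin was precipitated with an HA antibody and sequenced (ChIP-seq), and each condition had 1 list of peaks, the places where the authors' caller found enrichment. The sources used here do not name the promoter that drives the transgene or the number of MEF lines or embryos. Since a condition is a single list, no value below has a replicate error and no difference was tested.

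PRC1 places ubiquitin on histone H2A through Ring1 or Rnf2, each paired with 1 of several Pcgf proteins. Canonical PRC1 holds a Cbx protein, which reads the methyl mark that PRC2 places on histone H3, and a Phc protein, while variant PRC1 holds Rybp or Yaf2 instead. Kdm2b joins the variant complex with Pcgf1 and Bcor, called PRC1.1, and brings it to unmethylated CpG-rich DNA through its CXXC zinc finger. Polycomb complexes hold developmental genes silent in fibroblasts as in other cells, and Kdm2b is known there for delaying senescence.

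The start sequences of members are shown first, since CG dinucleotides are the letters that a CXXC finger reads. The shown genes are those of the highest score among members whose induced peak covers a start site listed by RefSeq (GRCm38.p6, the build of the peaks, mm10) and whose window reaches beyond the gene, with Kdm2b for comparison. Each run, 5′ to 3′ on the gene's strand, holds the bases of the 250 before the listed start that lie outside the gene, and CG dinucleotides are in capitals. The stretches are chr11:79992856-79993105 (Suz12, plus strand), chr6:71632991-71633167 (Kdm3a, minus), chr5:108065424-108065659 (Mtf2, plus), chr17:26932877-26933126 (Phf1, plus) and chr5:122989271-122989349 (Kdm2b, minus).
Suz12: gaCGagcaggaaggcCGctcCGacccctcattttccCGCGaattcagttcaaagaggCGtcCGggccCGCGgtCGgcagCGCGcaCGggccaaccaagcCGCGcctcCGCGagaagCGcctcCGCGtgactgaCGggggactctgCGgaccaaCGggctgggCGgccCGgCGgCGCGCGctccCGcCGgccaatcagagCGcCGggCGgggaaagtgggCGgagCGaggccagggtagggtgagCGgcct
Kdm3a: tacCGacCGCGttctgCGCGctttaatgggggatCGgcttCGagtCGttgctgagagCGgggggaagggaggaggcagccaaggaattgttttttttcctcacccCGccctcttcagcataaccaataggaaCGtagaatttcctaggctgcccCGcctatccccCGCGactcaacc
Mtf2: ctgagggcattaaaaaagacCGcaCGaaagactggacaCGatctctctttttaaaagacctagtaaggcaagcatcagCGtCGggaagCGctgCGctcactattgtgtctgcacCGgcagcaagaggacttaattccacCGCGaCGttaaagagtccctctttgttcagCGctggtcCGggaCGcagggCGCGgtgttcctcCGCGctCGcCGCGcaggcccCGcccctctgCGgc
Phf1: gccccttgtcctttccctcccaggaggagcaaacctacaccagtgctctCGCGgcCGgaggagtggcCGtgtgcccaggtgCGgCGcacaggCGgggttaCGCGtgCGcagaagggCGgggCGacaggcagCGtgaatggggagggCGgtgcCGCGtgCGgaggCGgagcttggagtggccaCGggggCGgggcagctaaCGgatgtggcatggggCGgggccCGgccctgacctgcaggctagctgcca
Kdm2b: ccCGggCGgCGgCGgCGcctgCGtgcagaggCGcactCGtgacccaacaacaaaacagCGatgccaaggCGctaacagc
The Suz12 stretch holds 37 CG in 250 bases, that of Phf1 23 in 250, that of Mtf2 23 in 236, that of Kdm3a 14 in 177 and that of Kdm2b 10 in 79. An induced peak covers every base of the first 4 genes' stretches and no base of that of Kdm2b.

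In the induced list, 14 of the 47 genes (29.8%) had a peak with any base within 1 kb of a gene border, meaning either end of the gene, where 13.4% of all protein-coding genes did. These were 6 of 21 PRC1 genes (28.6%), 4 of 10 PRC2 genes (40%) and 4 of 16 demethylase genes (25%). Of 35 further genes of Polycomb complexes, their cofactors and demethylases, 5 (14.3%) had one. The 29.8% is therefore the share of the 47 named genes, not of such genes as a class. In the non-induced list none of the 47 had a border peak, where 1.59% of all genes did. With so low a share among all genes, a count of 0 in 47 says little. Within 5 kb of a border the induced count was 17 (36.2%; 18.4% of all genes), and with the whole gene body included it was 20 (42.6%; 21.4%). The non-induced counts were 2 (4.26%; 5.36% of all genes) and 7 (14.9%; 12.7%), close to the shares of all genes. The members had a median gene length of 43.6 kb and all genes one of 17.2 kb, and the part of length in these shares was not tested. The groups of members were small, and their shares were not compared with each other by a test.

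**Figure D1:**
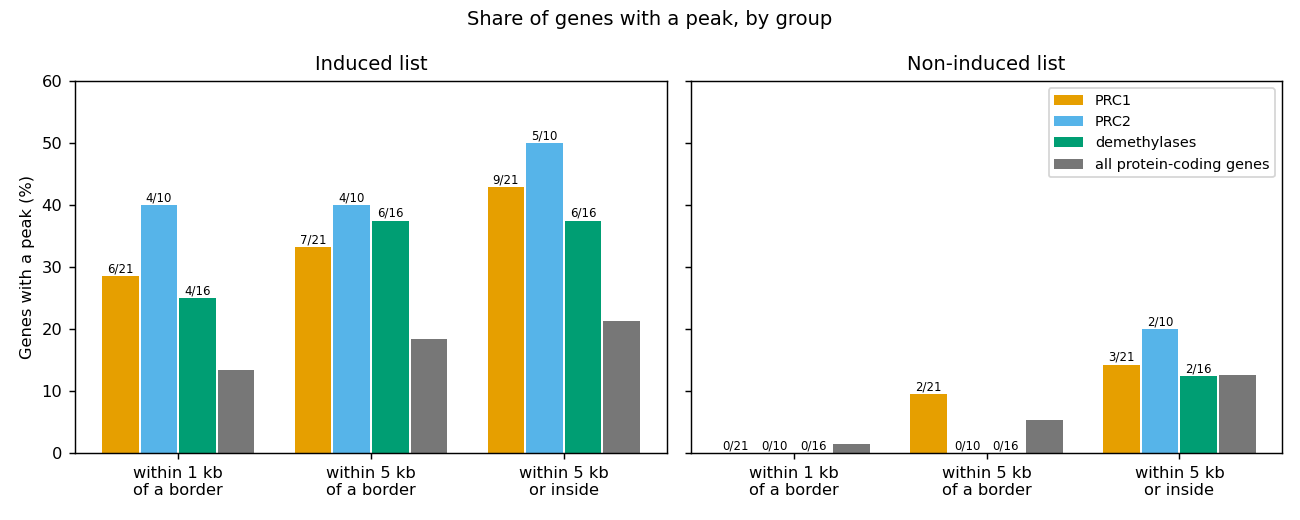
Percent of genes with a peak (y axis) under 3 distance rules (x axis), for PRC1, PRC2, demethylases and all protein-coding genes, in the induced (left) and non-induced (right) list; figures over bars are marked genes over genes in the group. Within 1 kb of a border, induced-list shares were 28.6%, 40% and 25% against 13.4% of all genes, and no member was marked in the non-induced list.

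The score is the authors' own value for each peak, and both lists begin at a score of 50. The 29 induced peaks at or inside members had scores from 50.3 to 211 with a median of 76.7 (66.6 over the whole list). None of them overlapped a non-induced peak. The share of all induced peaks that overlap one is not given here, so no trait of the members is read from this. The 7 non-induced peaks scored 50.9 to 75.3 (median 59.2; 60.2 over the whole list). Scores at the borders of members were much like those of other marked genes: the median of each gene's highest border peak was 75.3 over the 14 members and 80.2 over all 2930 marked genes, and 28.6% against 31.7% reached 100. The members that reached 100 at a border were Suz12, Pcgf1, Kdm3a and Kdm5a, one from each of PRC2 and PRC1 and a pair of demethylases.

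**Figure D2:**
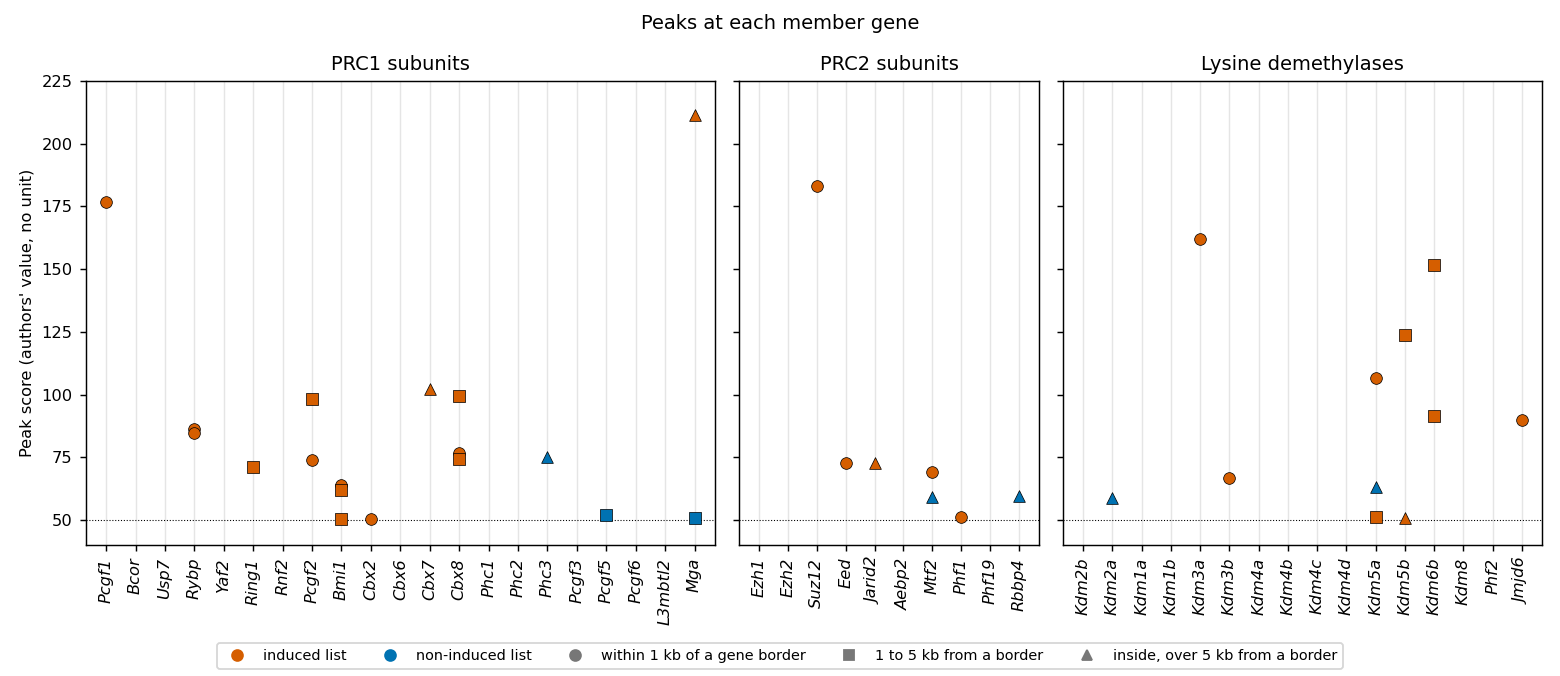
Peak score (y axis, authors' value without unit) of every peak within 5 kb of or inside each member gene (x axis); colour gives the list and the symbol the distance from the nearest gene border, and the dotted line marks a score of 50. The 29 induced peaks reached 211 (Mga) and the 7 non-induced peaks 75.3 (Phc3). How the score compares between the lists is not known.

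Kdm2b itself had no peak of either list within 5 kb or inside, although the gene spans 118.6 kb on chromosome 5. RefSeq lists 4 start sites for it. One pair lies near its 5′ border and the other pair 88.9 kb inside the gene, in windows of 300 bases with 18 and 28, and 47 and 49, CG. The nearest induced peak was 68.5 kb from the gene, with a score of 52.95, close to the lowest in the list.

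Among the 7 partners of Kdm2b in PRC1.1, Pcgf1 had the strongest peak. Pcgf1, whose RING finger protein is the defining Pcgf subunit of that complex, had an induced peak with a score of 177, rank 229 of 5497, and its nearest non-induced peak was 134 kb away. The peak (chromosome 6, 83077684 to 83079290) was 1607 bp wide in a gene of 3.3 kb, and lay inside it from 132 bp after the left border. Rybp, the subunit that takes the place of Cbx proteins, had a pair of induced peaks on either side of its right border. Their scores were nearly equal, 86.4 for the inner one (694 bp inside) and 84.7 for the outer one (443 bp outside), and 1136 bp without a called peak lay between them. Its paralogue Yaf2 had none, and its nearest induced peak was 7.8 kb away with a score of 65.8.

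Of the ubiquitin ligase subunits, Ring1 had an induced peak of 71.1 located 2.4 kb outside its 5′ border, and that peak was also within 1 kb of borders of H2-Ke6 and Slc39a7. Rnf2, the other catalytic subunit, had its nearest induced peak at 119 kb. Bcor, the corepressor subunit of the complex, and the deubiquitinase gene Usp7 had no peak of either list. Bcor is on chromosome X, where none of 966 genes had an induced border peak and 1 had a non-induced one.

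Canonical PRC1 genes had border peaks in 4 of 9 cases (44.4%; 13.4% of all genes), with scores of 50.3 to 76.7. Pcgf2 (Mel18) had a peak of 74.0 over its 5′ border, shared with the proteasome gene Psmb3, and a stronger one of 98.2 inside the gene, 875 bp from the start site that RefSeq lists for it. Bmi1, the Pcgf protein known for repressing the Cdkn2a locus, had a peak of 63.9 beginning 708 bp inside its 5′ border. It was flanked by peaks of 50.6 upstream, at Commd3, and 62.2 downstream of the gene, at Gm46725. Phc1, Phc2 and Phc3, the subunits that polymerise, had no induced peak. Phc3 had a non-induced peak of 75.3 lying 17.3 kb inside the gene, the highest non-induced score among members.

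The chromodomain genes Cbx2 and Cbx8 lie side by side on chromosome 11. In the 27.9 kb from 5 kb before Cbx2 to 5 kb after Cbx8, the induced list had 4 peaks with scores of 50.3 to 99.35 and the non-induced list had 0. The lowest of them, 50.3, began 14 bp inside the left border of Cbx2. Cbx8 had 3 peaks: 76.7 and 74.3 inside the gene toward its 3′ end, and 99.35 upstream, 1.97 kb outside its 5′ border. Its border peak at 1 kb was therefore at the 3′ end of the gene. Of Cbx7 and Cbx6, on another chromosome, Cbx7 had an induced peak of 102 (832 bp wide) deep inside the gene, 570 bp from its listed start, and Cbx6 had its nearest at 49 kb.

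**Figure D3:**
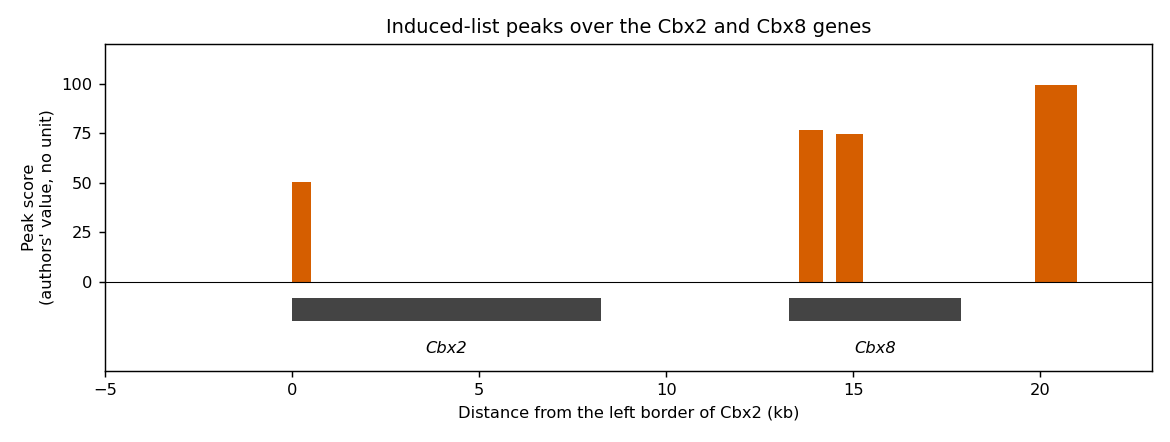
Scores (y axis, authors' value without unit) of the 4 induced-list peaks along the Cbx2 and Cbx8 genes; the x axis gives kb from the left border of Cbx2, bars span the peaks, and dark boxes are genes. One peak stands at the left border of Cbx2, a pair lies inside Cbx8 and the highest (99.35) is just beyond Cbx8, and the non-induced list has none here.

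The other variant PRC1 genes, Pcgf3, Pcgf5, Pcgf6, L3mbtl2 and Mga, had no induced border peak (0 of 5; 13.4% of all genes). Mga, the DNA-binding scaffold of the Pcgf6 complex, nevertheless held the highest score of all members, 211 (rank 115 of 5497). That peak (chromosome 2, 119897195 to 119898617) lay 24.7 kb inside the gene border and covered the start site RefSeq lists for Mga, at 119897228, whose window of 300 bases has 24 CG. The gene border is thus not the start listed for every member, and a count by borders misses this peak and that of Cbx7. In the non-induced list Mga had a peak of 50.9 located 3.97 kb outside its 5′ border, and Pcgf5 one of 52.1 at 3.13 kb. Both were near the lowest score of that list.

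PRC2 methylates histone H3 through Ezh1 or Ezh2, with Suz12 and Eed as its other core subunits. Both partner subunits had induced border peaks and neither catalytic subunit did. Suz12 had the highest border score of all members, 183 (rank 211 of 5497), in a peak of 1136 bp over its 5′ border (chromosome 11, 79992213 to 79993348) that holds the CG-rich stretch printed above. Eed, which binds the methyl mark, had a peak of 72.75 from 667 bp inside its 5′ border. Neither had a non-induced peak.

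Ezh1 and Ezh2 had no peak of either list within 5 kb or inside. Their nearest induced peaks were 16.4 kb away with a score of 212 (Ezh1) and 218 kb away with a score of 58.0 (Ezh2). Of the Polycomb-like proteins, which bind DNA and stabilise PRC2, Mtf2 had an induced peak of 69.2 and Phf1 one of 51.2, both over their 5′ borders, and Phf19 had its nearest at 15.1 kb. The Phf1 peak was shared with Kifc5b, whose border lies within 1 kb of it. Jarid2, which recruits PRC2, had an induced peak of 72.9 only deep inside, 51.5 kb from the nearer border. Aebp2 had none on either side for 2485 kb, the farthest of all members. Mtf2 and the histone-binding subunit gene Rbbp4 each had a non-induced peak inside the gene, with scores of 59.2 and 59.7.

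Among the demethylases the highest scores were those of Kdm3a, Kdm6b and Kdm5b. Kdm3a and Kdm3b, which remove methyl groups from lysine 9 of histone H3, both had induced border peaks. The peak of Kdm3a scored 162 (rank 295 of 5497) and covered its 5′ border (chromosome 6, 71632545 to 71633734), and that of Kdm3b scored 66.9 and lay 224 bp inside its left border. Neither had a non-induced peak.

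Kdm5a and Kdm5b, which remove the H3K4 methyl mark of active promoters, had peaks as well. Kdm5a had an induced peak of 107 over its left border, shared with Ccdc77, and weaker ones of 51.1 (induced) and 63.3 (non-induced) inside the gene. Kdm5b had an induced peak of 124 that began 1.41 kb inside its 5′ border and was also near Mgat4e, so it counted within 5 kb but not within 1 kb. A further induced peak of 51.0 lay 22.1 kb inside Kdm5b.

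Kdm6b, which removes the mark that PRC2 places, had induced peaks of 152 and 91.7 beyond 1 kb from its borders. The stronger one was 1.84 kb outside the left border, within 1 kb of borders of Cyb5d1, Naa38 and Tmem88. The other lay 1.93 kb inside the right border. Jmjd6, a JmjC-domain hydroxylase, had a peak of 89.95 over its 5′ border, shared with Mettl23, and no non-induced peak.

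Within 5 kb or inside, 6 of the 16 demethylase genes had an induced peak (37.5%; 21.4% of all genes). The remaining 10 had none. They were the amine oxidase genes Kdm1a and Kdm1b, and also Kdm2b, Kdm2a, Kdm4a, Kdm4b, Kdm4c, Kdm4d, Kdm8 and Phf2. Their nearest induced peaks were 21.2 to 969 kb away (median 92.7 kb). Kdm2a, the close paralogue of Kdm2b, had a non-induced peak of 58.9 lying 34.7 kb inside. Over all groups 23 of the 47 members (48.9%) had no peak of either list within 5 kb or inside, where 70.1% of all genes had none, and Mga, Mtf2 and Kdm5a had peaks of both at different places.

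**Figure D4:**
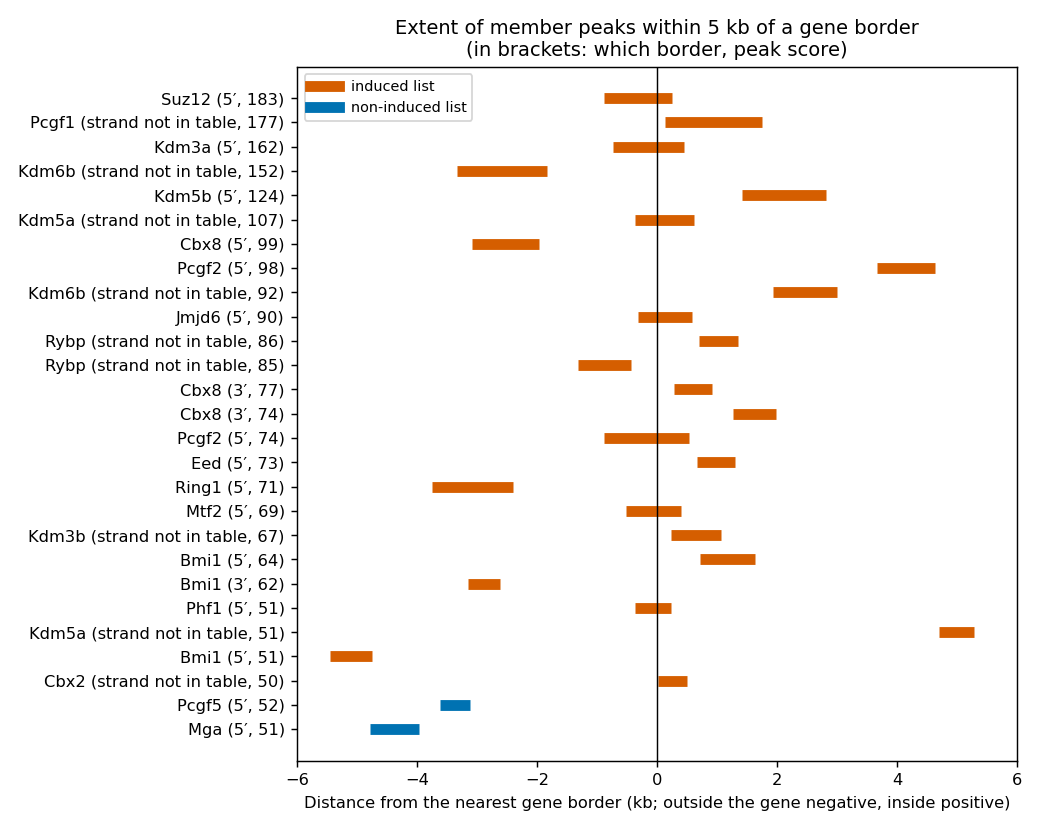
Extent of each member peak within 5 kb of a gene border; the x axis is the distance from the nearest border in kb (negative outside the gene, positive inside), and each line is 1 peak, ordered by score within its list. 7 of the 14 members with a border peak had it over the border itself, and both non-induced peaks lie outside the gene at over 3 kb.

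At the border the members looked like other marked genes. In 7 of 14 members (50%) a peak covered the border base, as in 54.6% of all marked genes, and in 4 of 14 (28.6%) a border peak was shared with another protein-coding gene, as in 33.8%. Those shared peaks were the ones at Pcgf2, Phf1, Kdm5a and Jmjd6, and which gene of each pair a peak belongs to cannot be read from its position. The strand was known for 9 of the 14, and 8 of these had the peak within 1 kb of the 5′ border (88.9%; 93.4% of all marked genes). The exception was Cbx8. Over all 38 members of known strand these 8 are 21.1%, where 12.7% of all genes had an induced peak there, and 0 members had a non-induced one, where 0.863% of all genes did. Counting any listed start instead, an alternative added after seeing the data, gave 10 of 38 members (14% of all genes), with Mga and Cbx7 joining, and 0 in the non-induced list (0.972%).

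The start windows of members held more CG than those of all genes, and marked and unmarked members had nearly the same medians. The RefSeq start windows of 300 bases (250 before and 50 from the start) were available for 38 of the 47, and the most upstream window was used. Not in the table were Kdm2a, Kdm3b, Kdm4b, Kdm5a, Kdm6b, Pcgf1, Rybp, Yaf2 and Cbx2. The motif searched was CG, which reads the same on both strands and is found at least once in 94.8% of all 17492 windows. Members had a median of 24 CG, and all genes a median of 13. The 10 members with an induced peak within 1 kb of that start had a median of 24 (quartiles 23.2 and 32.2), and the 28 without had 23.5 (17 and 31). Over all genes the medians were 24 with and 10 without a peak.

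Windows with many CG were found at members without a peak too. Usp7 and Phf2 each had 63 CG, the highest counts among members, and Rbbp4 had 39. Suz12, with 41, was the highest among the marked members. Kdm4c had no CG in its window and Aebp2 had 4, and neither had a peak. Only the most upstream start was used, and each gene has a further listed start with more CG (28 at Kdm4c, 21 at Aebp2). Of all windows with at least 10 CG, 21.8% had an induced peak within 1 kb of the start, and of those with fewer 2.16%. Among members the counts were 10 of 35 (28.6%) and 0 of 3. The part of CG content in the members' share was not tested.

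**Figure D5:**
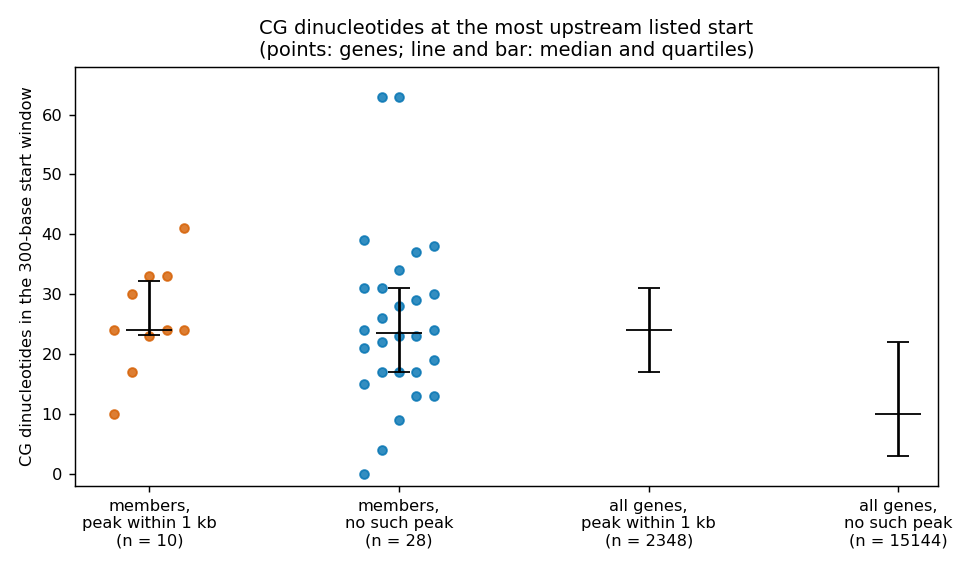
CG dinucleotides (y axis) in the 300-base window at the most upstream listed start of members with and without an induced peak within 1 kb of it (points are genes), and of all genes in the table; lines are medians and bars reach from the first to the third quartile. The member medians are 24 and 23.5, those of all genes 24 and 10.

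Further genes of these pathways were counted in the same way. Of 35 other genes of Polycomb complexes, their cofactors and demethylases, 5 (14.3%) had an induced border peak, a share near the 13.4% of all genes, and 8 of the 35 are on the sex chromosomes. They were Csnk2b, a casein kinase subunit (118), Wdr5 (89.5), Tfdp1 (61.8), Dcaf7 (57.7) and Riox1 (54.9). Of 10 genes of the enzymes that remove ubiquitin from histone H2A and their cofactors, 5 (50%; 13.4% of all genes) had one: Mbd6 (179.5), Asxl2 (74.9), Asxl3 (63.7), Asxl1 (55.5) and Mbd5 (54.99). The enzyme genes Bap1, Usp16 and Mysm1 were not among them.

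Among 11 genes of the H3K4 methyltransferase complexes, 3 (27.3%; 13.4% of all genes) had an induced border peak, namely Cxxc1 (188), Rbbp5 (98.5) and Kmt2b (56.3). Of 10 other genes for proteins with a CXXC zinc finger, the domain Kdm2b uses to bind DNA, 4 (40%; 13.4% of all genes) did: Cxxc1, Kmt2b, Tet1 (97.3) and Cxxc5 (62.3). Cxxc1 and Kmt2b are in both lists. In the non-induced list no gene of these 4 lists had a border peak, where 1.59% of all genes did, so that for lists of this size a count of 0 says little. These lists are small, and their shares were not tested.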

How the data were processed

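HA ChIP-seq of induced and non-induced MEFs was analysed as deposited, 1 peak list per condition, 5497 and 10532 peaks. Bowtie2 and mm10 are named in the submitters' processing notes, and MACS by the peak names in the files. Each peak has a score deposited by the authors, whose formula, threshold and scale between lists no source used here gives, nor how the input libraries and the independent samples of the protocol entered. Read depth is unknown. Lists were assigned to conditions by the marks w and wo in their names and the W and W/O of the titles.

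Peaks were set against protein-coding genes of RefSeq GRCm38.p6 (13 mitochondrial genes left out). Strand came from the RefSeq start table. A gene was marked when any base of a peak lay within 1 kb of either end. Analyses used Python 3.11.15, numpy 2.4.6 and matplotlib 3.10.9. Marked genes differed from bedtools 2.31.1 for 0 of 21887 genes. Members, lists and rules were chosen with earlier results of these data known. Named were all members with a peak, Kdm2b, and up to 6 marked genes per further list. One gene of these lists is not reported here. No protein sequences were used, and shown start stretches were limited to bases outside genes, since exons were not given.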

Additional observations from a re-analysis of the deposited data

How the results depend on the processing

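No paired analysis was possible because each condition has 1 list and no test was run. Of 82 alternative counts, 64 stayed within 1.5 times the reported count, but many of these could not have moved. No member had a non-induced border peak as reported, and a stricter rule cannot add any. Making the lists equal in size left the induced list whole, so its counts were fixed. The 64 is therefore not read as a measure of stability. With a score of at least 100, induced border peaks remained at 4 of 47 members (PRC1 1, PRC2 1, demethylases 2) and 930 genes (4.25% of all). Non-induced ones remained at 24 genes (0.11% of all). Counting the 5′ border only, which is known for 38 members, gave 8 members (PRC1 2, PRC2 4, demethylases 2) and 151 non-induced genes. The induced share was 12.7% of all genes with known strand. Strand was known for only 9 of the 14 members marked as reported, and 8 of these 9 kept their mark. Any listed start, an alternative added after seeing the data, gave 10 members, Mga and Cbx7 now included (14% of all genes), and 170 non-induced genes. The 10 were PRC1 4, PRC2 4 and demethylases 2. Within 5 kb 2 members, both of PRC1 (4.26% of members), and 1173 genes (5.36% of all) had a non-induced peak. Non-induced genes numbered 215 within 500 bp, 185 at or above the joint median score (61.6) and 200 with lists of equal size. Read depth is unknown, so its part in these counts was not tested.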
